A study of Mus musculus with 12 samples.

Results

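The insulin-like growth factor (IGF) system was followed in mouse retina through 9 genes of a table of 35976 gene rows. The genes were chosen by symbol for their role, with earlier results of these data already known. They were the ligands Igf1 and Igf2, the receptor Igf1r and the binding proteins Igfbp2, Igfbp3, Igfbp4, Igfbp5, Igfbp6 and Igfbp7. All 9 were kept by the filter on low counts over the 4 groups, which left 14287 genes tested of 24484 with at least 1 read. The filter asked for at least 2.11 reads per 1000000 in at least 3 libraries. Igfbp6 reached this in 4 normoxic and 0 OIR libraries and Igfbp3 in 2 normoxic and all 6 OIR libraries, so each was kept only through the condition in which it was higher, and the other 7 would have been kept through either.

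Retinas came from C57BL/6 mice labelled WT and from mice labelled Caspase1 knockout (Casp1 KO), either kept in room air (normoxia) or put through oxygen-induced retinopathy (OIR). OIR is a model of ischaemic retinopathy in which pups breathe 75% oxygen from postnatal day 7 to day 12, lose part of the retinal capillary bed, and become relatively hypoxic on return to room air. The retinas were taken 3 days after that return, and the study's methods place normoxic and OIR C57BL/6 pups at day 15. Pups of both sexes were used in the study as a whole, and the sex behind each library is not given in the sources used here. For the Casp1 KO mice the sources used here give the treatment and the 3 days, and do not describe the line or its age. Each of the 4 groups held 3 libraries of 3′ mRNA sequencing, in which a read marks the 3′ end of a polyadenylated transcript and counts therefore do not scale with transcript length. Nothing in the labels says whether libraries were single animals, pools or repeat preparations, so p-values measure the spread between these libraries, which may be technical. Levels are given as CPM, the reads of a gene per 1000000 reads of its library, with library totals scaled by TMM factors, ± SD over n = 3 libraries unless stated otherwise.

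The libraries held 3391203 to 5657873 reads assigned to genes, apart from replicate 2 of normoxia labelled WT with 22815830, so that 3 reads corresponded to 0.133 to 0.884 CPM. Reads of Casp1 itself went against the labels, with 7 reads in all under the WT label and 126 under the Casp1 KO label, and for this reason genotype is given here as a label throughout; whether those reads lie within the deleted part of the gene is not known from the sources used here. Replicate 3 of OIR labelled WT stood apart from its group, in that its counts gave a chi-square divided by its degrees of freedom of 15.3 and 14.4 against the other two libraries, which gave 5.41 against each other. Xist, transcribed from the inactive X chromosome, ranged from 16 to 1772 reads among the 3 OIR libraries labelled WT, at 433, 2.91 and 120 CPM. It was at 463 to 518 CPM in normoxia labelled WT, and at 341 to 351 CPM in normoxia and 362 to 398 CPM in OIR labelled Casp1 KO. Sex make-up may therefore differ between normoxia and OIR under the WT label. Its part cannot be told apart from that of OIR in any comparison using the OIR libraries labelled WT. Xist also differed between the labels in normoxia (Casp1 KO against WT, log2 fold change −0.49, edgeR quasi-likelihood test, adjusted p = 2.58e-05). Sex make-up may therefore differ there too, and its part cannot be told apart from that of the label. The labelled tissue was checked by Gnat1, the transducin subunit of rod photoreceptors, which was among the 11 most abundant genes in every library, at 5218 to 6893 CPM.

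IGF1 and IGF2 are small secreted hormones that signal through the receptor tyrosine kinase IGF1R to promote growth and survival of cells, and most of the hormone outside cells is held by IGF-binding proteins, which prolong its life and set how much reaches the receptor. In the retina IGF1 is permissive for vessel growth driven by vascular endothelial growth factor, and a low IGF1 level in the blood of preterm infants goes with retinopathy of prematurity. IGFBP3 has been described as protective for retinal vessels in the oxygen model. In whole retina, fewer cells of a type and less RNA per cell cannot be told apart.

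The promoter windows of Igfbp2 and Igf1r, the members that passed the test, and of Igfbp3 and Igfbp6, the members with the largest estimated changes in either direction, are given here from RefSeq on build GRCm38.p6, each from 250 bases before to 50 bases after an annotated transcript start. Capitals mark the letters ACGTG or GCGTG on either strand, the core of the hypoxia response element. Overlapping matches are merged into 1 stretch.

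Igfbp2, chr1:72824230-72824529, plus strand: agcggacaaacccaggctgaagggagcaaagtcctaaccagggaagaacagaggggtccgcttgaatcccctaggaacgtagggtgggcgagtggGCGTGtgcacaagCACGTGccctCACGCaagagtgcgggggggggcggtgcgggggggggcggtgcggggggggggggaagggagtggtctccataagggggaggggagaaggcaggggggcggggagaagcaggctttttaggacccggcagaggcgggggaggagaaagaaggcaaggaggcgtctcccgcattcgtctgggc

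Igf1r, chr7:67952007-67952306, plus strand: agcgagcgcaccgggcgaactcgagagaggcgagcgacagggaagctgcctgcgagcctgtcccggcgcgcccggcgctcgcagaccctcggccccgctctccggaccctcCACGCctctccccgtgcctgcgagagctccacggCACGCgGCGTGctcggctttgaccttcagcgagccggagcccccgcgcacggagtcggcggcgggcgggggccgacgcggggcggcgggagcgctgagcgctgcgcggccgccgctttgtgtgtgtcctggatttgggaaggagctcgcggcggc

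Igfbp3, chr11:7213874-7214173, minus strand: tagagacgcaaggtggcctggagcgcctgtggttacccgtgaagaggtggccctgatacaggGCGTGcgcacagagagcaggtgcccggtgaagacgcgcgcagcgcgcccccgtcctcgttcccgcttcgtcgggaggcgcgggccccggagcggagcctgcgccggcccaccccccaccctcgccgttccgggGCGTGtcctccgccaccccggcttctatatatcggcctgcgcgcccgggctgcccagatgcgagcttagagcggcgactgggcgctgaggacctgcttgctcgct

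Igfbp6, chr15:102143936-102144235, plus strand: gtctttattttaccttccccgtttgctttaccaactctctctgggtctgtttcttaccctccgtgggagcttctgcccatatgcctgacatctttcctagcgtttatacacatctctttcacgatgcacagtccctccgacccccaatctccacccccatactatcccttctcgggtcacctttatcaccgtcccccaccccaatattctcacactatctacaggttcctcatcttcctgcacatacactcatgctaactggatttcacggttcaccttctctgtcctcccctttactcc

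The Igfbp2 and Igf1r windows each held 3 stretches, the Igfbp3 window 2 and the Igfbp6 window 0. At least 1 stretch was present in 43.8% of all 32851 windows of this length in the RefSeq table, at least 2 in 17.2% and at least 3 in 6.43%. All 9 members matched the table, with 13 windows, of which 7 held the letters. The remaining windows with a match belonged to Igf1, Igf2, Igfbp7 and a second start of Igfbp2, with 1, 1, 2 and 1 stretches. A match describes letters only and was not tested for binding.

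On GRCm38 with the GENCODE vM21 annotation, Igfbp2 lies at chr1:72824503-72852474 on the plus strand and Igfbp5 at chr1:72857932-72874884 on the minus strand, with their 3′ ends facing each other across 5457 bases. Igf2 lies at chr7:142650766-142666816 and the noncoding RNA H19 at chr7:142575529-142578143, both on the minus strand and 72622 bases apart. The other members lie at chr10:87858265-87937042 (Igf1), chr7:67952827-68233668 (Igf1r), chr11:7206086-7213923 (Igfbp3), chr11:99041244-99054392 (Igfbp4), chr15:102144362-102149511 (Igfbp6) and chr5:77349240-77408041 (Igfbp7). The RefSeq promoter windows of Igf1r and Igfbp6 end before the GENCODE start of the gene, so their stretches depend on the start chosen. Igf1, Igf2 and Igfbp7 overlap other annotated genes. The 3′ end of Igfbp7 shares 85 bases with Polr2b on the other strand, and Igf2 overlaps Gm49394 on its own strand, so reads of these members could have been split or added to by the counting, whose strand setting is not given in the sources used here. The antisense transcripts Igf1os and Igf2os held at most 16 and 42 reads in a library.

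Over all 12 libraries the receptor was the most abundant member. Igf1r averaged 458 CPM (range 332 to 610), above every library's value of any other member. Igf2 (87.3 CPM, range 58.6 to 119) and Igfbp5 (79.4 CPM, range 63.8 to 106) followed and overlapped. Every value of Igf1 lay below every value of Igfbp5. Igf1 averaged 53.8 CPM (range 43.6 to 61.3), Igfbp4 40.6 CPM (range 30.7 to 53.9) and Igfbp2 33.8 CPM (range 19.8 to 57.7), and each of these 3 ranges overlapped the next. Igfbp7 averaged 9.42 CPM (range 5.01 to 13.99), below all values of the genes above it. Igfbp3 at 2.61 CPM (range 0 to 5.83) and Igfbp6 at 1.57 CPM (range 0 to 4.42) were the rarest and lay partly at or under the level of 3 reads. Igfbp1, a liver-derived binding protein that is no member, held 0 to 7 reads per library and was not kept for testing.

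**Figure D1:**
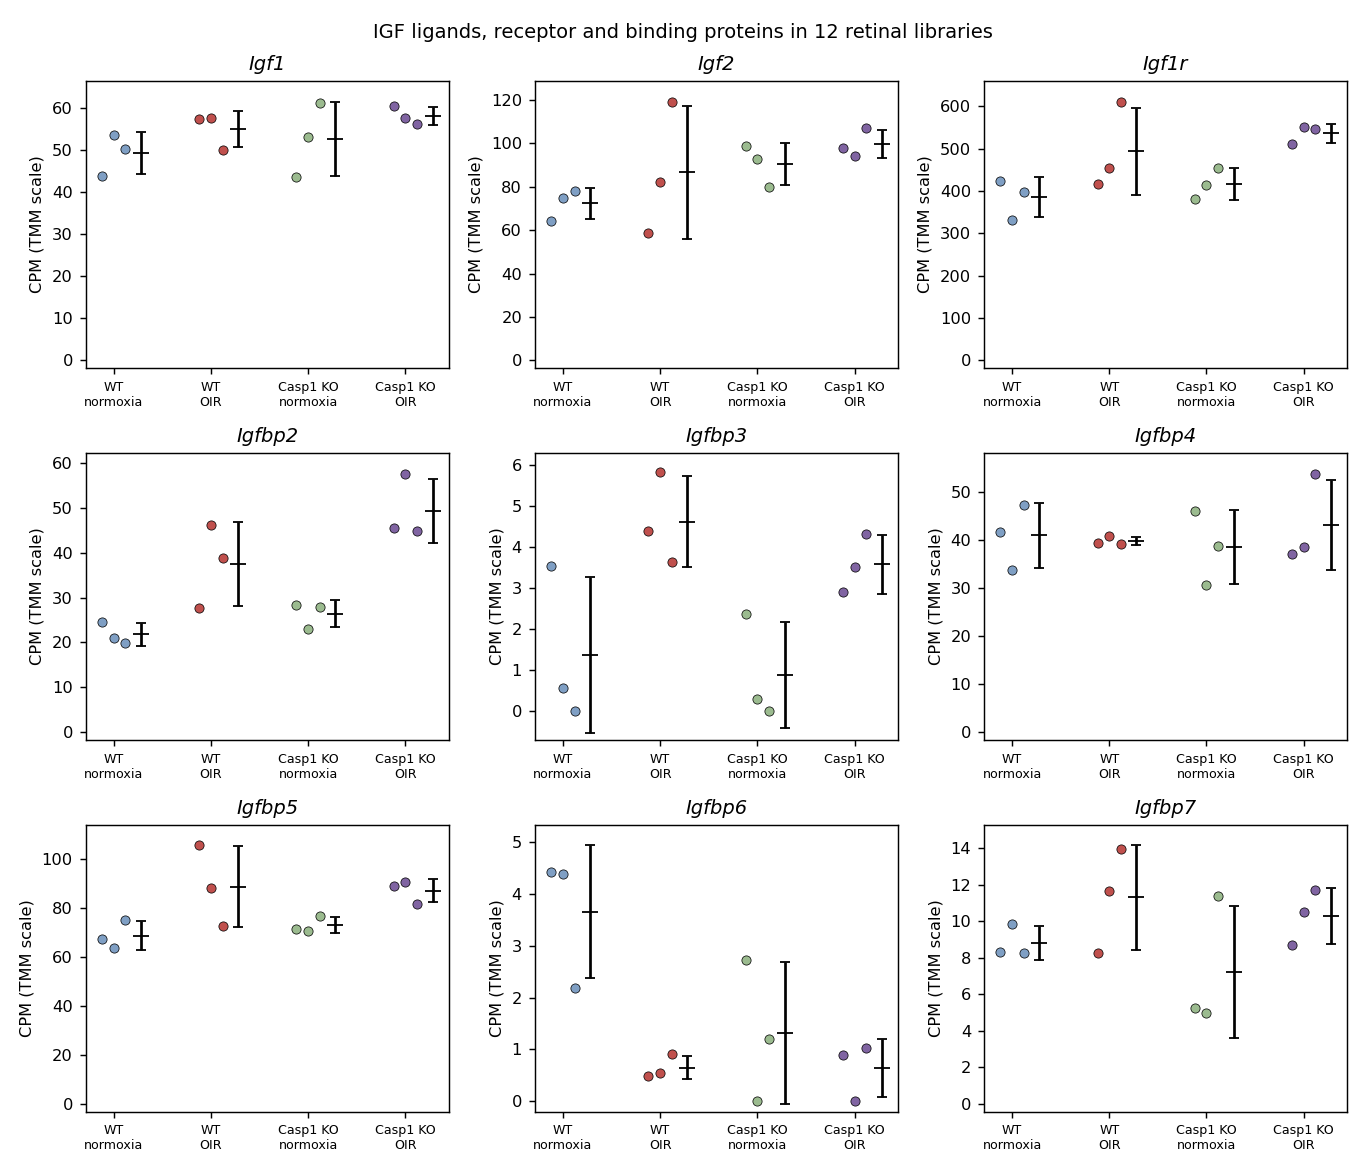
Levels of the 9 members in CPM on the TMM scale (vertical axes, a separate scale for each gene) in the 4 groups. Points are the 3 libraries of a group, drawn from left to right as replicates 1 to 3, and the bar beside them is the mean with its SD. The Igfbp2 points of both OIR groups lie above those of the normoxic group with the same genotype label, and Igf1 and Igfbp4 overlap between normoxia and OIR under both labels.

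The first question was which members OIR changed relative to normoxia. Under the WT label, 1 of 9 members passed the test, Igfbp2, which rose (edgeR quasi-likelihood test, Benjamini-Hochberg adjusted p under 0.05), where 4.22% of all genes tested did so. Under the Casp1 KO label, 2 of 9 passed, Igfbp2 and Igf1r, both higher, where 7.22% of all genes did. No member passed in the downward direction in either. The median log2 fold change of the 9 was 0.35 under the WT label and 0.26 under the Casp1 KO label, where the median of all genes was 0.01 and 0.0006. The 2 comparisons have no library in common.

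Igf1, the main growth factor of the family, did not pass the test in either. It was at 43.9, 53.7 and 50.3 CPM in normoxia labelled WT and at 57.4, 57.6 and 50.1 CPM in OIR. With the Casp1 KO label it was at 43.6, 53.1 and 61.3 CPM in normoxia and 60.4, 57.7 and 56.3 CPM in OIR. The groups overlapped in both cases. The log2 fold changes of 0.15 (95% interval −0.16 to 0.47, adjusted p = 0.699) and 0.16 (−0.15 to 0.46, adjusted p = 0.639) did not differ from 0 beyond the spread between libraries.

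Igf2, the fetal growth factor expressed from the paternal allele, was at 64.4, 74.7 and 78.0 CPM in normoxia labelled WT and at 58.6, 82.2 and 119 CPM in OIR. Replicates 1 and 3 of OIR were thus the lowest and the highest of the 6. The log2 fold change was 0.27 ± 0.20 (SE, adjusted p = 0.548), and −0.03 without replicate 3 of OIR. Under the Casp1 KO label the values of 99.0, 92.6 and 79.7 CPM in normoxia and 97.6, 94.3 and 107 CPM in OIR overlapped, with a log2 fold change of 0.15 ± 0.12 (adjusted p = 0.557). Igf2 supplied 59.5% ± 1.3 of the reads of the 2 ligands in normoxia labelled WT, 59.9% ± 9.98 in OIR labelled WT, and 63.2% ± 6.5 and 63.1% ± 2.1 in the corresponding groups labelled Casp1 KO.

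Igf1r, the tyrosine kinase that both ligands activate, was at 423, 332 and 398 CPM in normoxia labelled WT and at 417, 454 and 610 CPM in OIR. The highest value was that of replicate 3, and replicate 1 of OIR lay below replicate 1 of normoxia. Its log2 fold change of 0.36 ± 0.14 did not pass (adjusted p = 0.171), and it was 0.18 without replicate 3 of OIR. Under the Casp1 KO label it was at 381, 414 and 455 CPM in normoxia and 510, 550 and 547 CPM in OIR. These groups did not overlap, and Igf1r rose by 1.29-fold (log2 fold change 0.37 ± 0.08, adjusted p = 0.000795). The call held without any single library (adjusted p 0.00148 to 0.0193) and was lost when all 12 libraries shared one estimate of the spread (adjusted p = 0.0848). Groups did not overlap for 24% of all genes tested in these libraries and for 23% in those labelled WT.

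Igfbp2, a binding protein abundant in the central nervous system, was the member with the smallest p-value in both comparisons. It was at 24.6, 20.96 and 19.8 CPM in normoxia labelled WT and at 27.6, 46.1 and 38.9 CPM in OIR, a mean of 21.8 ± 2.5 against 37.5 ± 9.3. The lowest OIR library exceeded the highest normoxic one by a small margin. Igfbp2 rose by 1.73-fold (log2 fold change 0.79 ± 0.22, adjusted p = 0.0449). The call was lost without any one normoxic library (adjusted p 0.110 to 0.176) and without replicate 2 of OIR (adjusted p = 0.242), with log2 fold changes of 0.62 to 0.88. It held without replicate 1 or 3 of OIR (adjusted p = 0.0149 and 0.0313).

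In the libraries labelled Casp1 KO, Igfbp2 was at 28.4, 22.99 and 27.9 CPM in normoxia and at 45.5, 57.7 and 44.8 CPM in OIR. Every OIR library exceeded every normoxic one. The rise was 1.87-fold (log2 fold change 0.90 ± 0.18, adjusted p = 0.0006) and passed without any single library (adjusted p 0.00121 to 0.0148). An exact permutation test of the 3 against 3 CPM values, two-sided, gave p = 0.1 under both labels, the smallest p that this design allows.

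Igfbp3, the main carrier of IGFs in the blood, had few reads. It held 20, 13 and 0 reads in normoxia labelled WT (3.54, 0.58 and 0 CPM) and 18, 32 and 20 reads in OIR (4.39, 5.83 and 3.63 CPM). The libraries labelled Casp1 KO held 13, 1 and 0 reads in normoxia (2.37, 0.29 and 0 CPM) and 13, 16 and 21 in OIR (2.90, 3.51 and 4.32 CPM). In both cases the OIR values lay above the normoxic ones, of which only replicate 1 came close. Because the gene was kept through OIR libraries, the filter favoured a difference in this direction. The log2 fold changes of 1.80 ± 0.89 (adjusted p = 0.318) and 1.86 ± 0.88 (adjusted p = 0.232) did not pass. Without replicate 1 of normoxia they were 3.52 (adjusted p = 0.103) and 4.46 (adjusted p = 0.0392), the latter with 1 and 0 reads left in that group.

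Igfbp4, which inhibits IGF action until cleaved by pappalysin, was at 40.96 ± 6.74 CPM in normoxia and 39.8 ± 0.9 CPM in OIR labelled WT, and at 38.5 ± 7.7 and 43.2 ± 9.3 CPM in the libraries labelled Casp1 KO. The groups overlapped. The log2 fold changes were −0.03 (95% interval −0.38 to 0.32, adjusted p = 0.964) and 0.16 (−0.20 to 0.52, adjusted p = 0.691).

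Igfbp5, the most abundant binding protein measured, was at 67.4, 63.8 and 75.1 CPM in normoxia labelled WT and at 106, 88.2 and 72.7 CPM in OIR. Replicate 3 of OIR lay within the normoxic range. Under the Casp1 KO label it was at 71.4, 70.7 and 76.8 CPM in normoxia and 88.9, 90.6 and 81.8 CPM in OIR, and the groups did not overlap. The log2 fold changes of 0.37 ± 0.16 (adjusted p = 0.225) and 0.26 ± 0.13 (adjusted p = 0.249) did not pass, and the former was 0.50 (adjusted p = 0.0276) without replicate 3 of OIR.

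Igfbp6, which binds IGF2 in preference to IGF1, was the only member with negative estimates under both labels. It held 25, 99 and 10 reads in normoxia labelled WT (4.42, 4.39 and 2.18 CPM) and 2, 3 and 5 reads in OIR (0.49, 0.55 and 0.91 CPM). These groups did not overlap, and the log2 fold change of −2.47 ± 0.78 did not pass the test (adjusted p = 0.0857). Because the gene was kept through its high group, the filter favoured a difference in this direction. The libraries labelled Casp1 KO held 15, 0 and 5 reads in normoxia and 4, 0 and 5 in OIR, and overlapped (log2 fold change −1.07 ± 1.15, adjusted p = 0.671).

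Igfbp7, a low-affinity member found in vascular tissue, was at 8.82 ± 0.92 CPM in normoxia and 11.3 ± 2.9 CPM in OIR labelled WT, and at 7.23 ± 3.61 and 10.3 ± 1.5 CPM in the libraries labelled Casp1 KO. The groups overlapped. The log2 fold changes were 0.35 ± 0.32 (adjusted p = 0.638) and 0.52 ± 0.37 (adjusted p = 0.475).

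**Figure D2:**
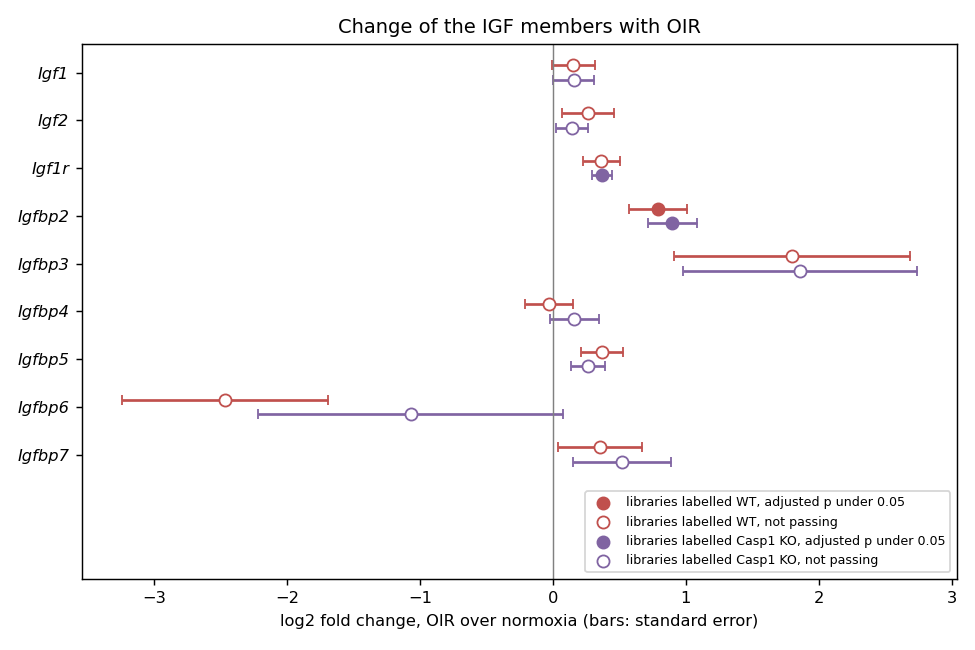
Log2 fold change of OIR over normoxia (horizontal axis) for each member, in red for the libraries labelled WT and in purple for those labelled Casp1 KO, with bars of 1 standard error and filled points where the adjusted p was under 0.05. Igfbp2 is filled under both labels and Igf1r under Casp1 KO, and the wide bars of Igfbp3 and Igfbp6 belong to the members with the fewest reads.

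A fit over all 12 libraries, with the genotype label as a term and added after the data had been seen, called 7.66% of all genes and the members Igfbp2 and Igf1r. Igfbp2 was at 24.1 CPM on average in the 6 normoxic and 43.4 CPM in the 6 OIR libraries, a log2 fold change of 0.84 ± 0.14 (adjusted p = 0.00018), and passed with any one library left out (adjusted p 2.33e-05 to 0.00108). Igf1r was at 400.5 and 515 CPM, a log2 fold change of 0.36 ± 0.09 (adjusted p = 0.00711), and passed likewise (adjusted p 0.0013 to 0.027). Igfbp5 (log2 fold change 0.31 ± 0.10, adjusted p = 0.0568) and Igfbp3 (1.82 ± 0.66, adjusted p = 0.0956) missed the threshold. Igfbp3 passed without replicate 1 of normoxia labelled WT (log2 fold change 2.59, adjusted p = 0.0275) or labelled Casp1 KO (2.44, adjusted p = 0.0481), and Igfbp5 without replicate 3 of OIR labelled WT (0.37, adjusted p = 0.017). In each case the library left out held the value of its group nearest the other condition, and Igfbp3 was kept only through OIR libraries. These passes are therefore no support for a rise. The remaining adjusted p values ran from 0.1247 for Igfbp6 to 0.865 for Igfbp4. This fit uses the same libraries as the 2 comparisons above and is no independent support for them.

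Of all genes, 1.53% rose with OIR and 2.69% fell under the WT label, and 3.84% and 3.39% under the Casp1 KO label. Some markers of other cells moved in the same libraries. The astrocyte and reactive glia list did so under both labels, with 5 of 8 genes higher under WT, Gfap, Cp, Serpina3n, Edn2 and Lcn2, and 4 of 8 higher and 1 lower under Casp1 KO. Its summed level went from 189.7 to 200.04 CPM in normoxia to 343 to 374 CPM in OIR labelled WT, and from 186 to 227 CPM to 308 to 351 CPM labelled Casp1 KO. Of 10 tested pericyte and smooth muscle genes, Acta2 rose under both labels and Myh11 and Cspg4 under Casp1 KO. The estimates of 3 of the 10 were negative under the WT label and of 4 under Casp1 KO, and 0 passed as lower. The summed pericyte list went from 522 to 560 CPM to 535 to 549 CPM labelled WT. With the Casp1 KO label it went from 530 to 538 CPM to 535 to 621 CPM, and the groups overlapped under both labels. Of 14 endothelial genes, 0 rose and 1 fell under the WT label, and 1 rose and 1 fell under Casp1 KO. By sign alone, 11 and 9 of the 14 estimates were positive. The summed endothelial list went from 162 to 183 CPM to 237, 266 and 161 CPM in OIR replicates 1 to 3 labelled WT. With the Casp1 KO label it went from 175 to 193 CPM to 182 to 218 CPM, with overlap. Among 10 rod genes 0 passed under the WT label, and 2 rose and 2 fell under Casp1 KO. Among 10 bipolar cell genes 2 fell under the WT label and 1 rose under Casp1 KO. From 8 tested fibroblast genes 1 rose under each label. Under the Casp1 KO label, 5 of 9 tested retinal pigment epithelium genes, 5 of 7 lens and cornea genes and 8 of 13 Müller glia genes rose with OIR, and 1 Müller glia gene fell. The summed lists went from 814 to 850 CPM up to 1211 to 1295 CPM, from 459 to 469 up to 819 to 917 CPM, and from 2925 to 3115 up to 4272 to 4449 CPM. Of the lens and cornea list, Mip, Krt5 and Krt12 were not kept for testing, Mip held 0 reads in both groups labelled WT, and Krt5 held 0 reads in both OIR groups. Under the WT label, the pigment epithelium list went from 731 to 788 CPM to 808 to 891 CPM with 0 of its genes higher and 1 lower, the lens list from 451 to 479 CPM to 269 to 590 CPM with 0 higher, and the Müller glia list from 3945 to 4044 CPM down to 3316 to 3506 CPM with 1 gene higher and 3 lower. Among genes of the hypoxia response, 3 of 13 rose under the WT label and 8 of 13 under the Casp1 KO label, among them Vegfa, Adm and Egln3 in both. In both, 7 of 10 retinal ganglion cell genes fell. Of 16 microglia and macrophage genes, 2 rose under the WT label, the complement genes C1qa and C1qc, and 3 under Casp1 KO, the same with C1qb. The summed microglia list went from 106 to 118 CPM up to 152 to 176 CPM labelled WT. With the Casp1 KO label it went from 99.9 to 108 CPM up to 165 to 182 CPM. Of 10 amacrine cell genes, 6 fell under the WT label and 1 under Casp1 KO. Of 5 tested red blood cell genes, 0 rose under Casp1 KO, and the haemoglobin genes Hba-a1 and Hba-a2 rose under the WT label, where the summed red blood cell list went from 120.1 to 147 CPM to 90.8 to 394 CPM. The part of these lists in the changes of Igfbp2 and Igf1r was not tested.

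The binding proteins were next summed. Reads of the 6 Igfbp genes summed to 145 ± 10 CPM in normoxia and 183 ± 12 CPM in OIR labelled WT, and to 147 ± 15 and 194 ± 9 CPM in the libraries labelled Casp1 KO. The groups did not overlap under either label. The ligands summed to 122 ± 12 and 142 ± 27 CPM labelled WT and to 143 ± 2 and 158 ± 6 CPM labelled Casp1 KO. Per ligand read there were 1.20 ± 0.17 binding protein reads in normoxia and 1.33 ± 0.30 in OIR labelled WT, which overlapped, and 1.03 ± 0.12 and 1.23 ± 0.08 in the libraries labelled Casp1 KO, which did not. These are sums of reads and not of proteins, and 3 against 3 libraries cannot give an exact p under 0.1.

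Igfbp5 made up the largest part of the Igfbp reads in every library, with group means from 44.96% to 49.8%. Igfbp2 made up 15.03% ± 1.80 in normoxia and 20.6% ± 5.0 in OIR labelled WT, where OIR replicate 1 at 14.8% lay within the normoxic range of 12.98% to 16.4%. With the Casp1 KO label its share was 17.9% ± 0.2 in normoxia and 25.4% ± 3.1 in OIR, without overlap. Igfbp4 went from 28.1% ± 2.8 to 21.8% ± 1.2 labelled WT, without overlap, and from 25.99% ± 3.09 to 22.2% ± 4.4 labelled Casp1 KO, with overlap. A share also depends on the levels of the other binding proteins. In CPM, Igfbp4 was at 40.96 ± 6.74 in normoxia and 39.8 ± 0.9 in OIR labelled WT (log2 fold change −0.03). The smaller share is therefore no fall in its level. Igfbp6 made up 0.263% to 0.536% of the Igfbp reads in OIR and 1.43% to 3.29% in normoxia labelled WT, and 0% to 0.520% in OIR and 0% to 1.75% in normoxia labelled Casp1 KO, which overlapped.

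**Figure D3:**
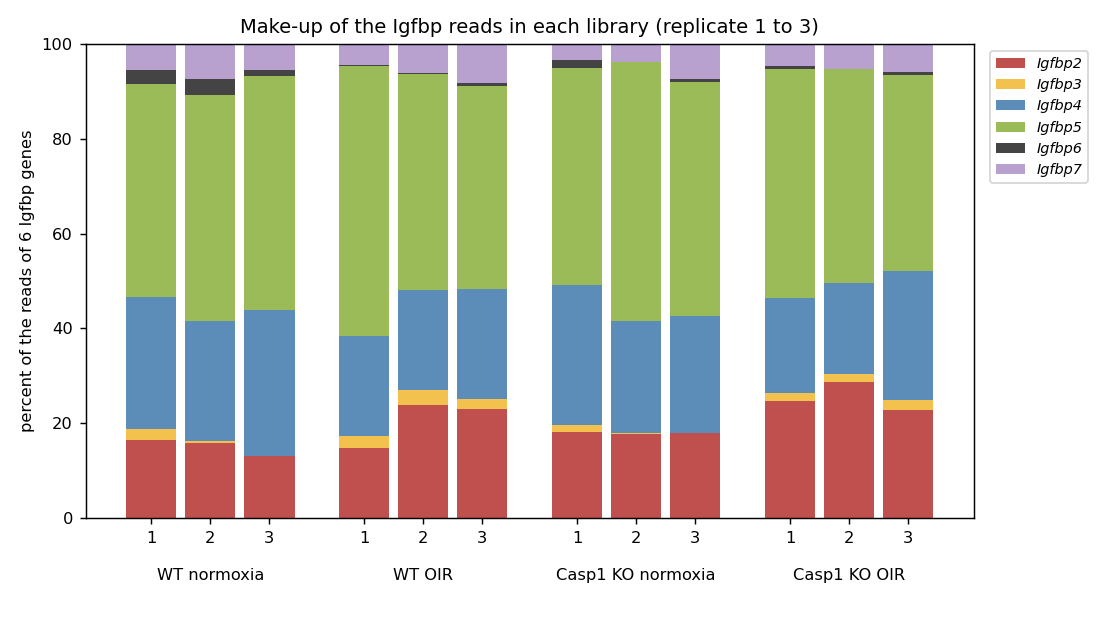
Share of each Igfbp gene in the summed reads of the 6 Igfbp genes (vertical axis, percent) in each library, stacked to 100%. Numbers under the bars are replicates. Igfbp5 in green is the largest part of every bar, and Igfbp2 in red is taller in all 3 OIR libraries labelled Casp1 KO and in 2 of the 3 labelled WT than in any normoxic library of the same label.

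The second question was whether the members differed between the genotype labels. In normoxia 0 of 9 passed the edgeR quasi-likelihood test, where 1.25% of all genes did, and 1 had an unadjusted p under 0.05, where 11.5% of all genes did. This was Igf2, at 79.7 to 99.0 CPM in the libraries labelled Casp1 KO and 64.4 to 78.0 CPM in those labelled WT, without overlap, as for 16.6% of all genes (log2 fold change 0.32 ± 0.13, adjusted p = 0.276). The other log2 fold changes lay between −1.39 for Igfbp6 (adjusted p = 0.511) and 0.29 for Igfbp2 (adjusted p = 0.654). In OIR 0 of 9 passed, where 0.112% of all genes did, and 0 had an unadjusted p under 0.05, where 10.3% did. The largest estimate was that of Igfbp2, at 44.8 to 57.7 CPM labelled Casp1 KO against 27.6 to 46.1 CPM labelled WT (log2 fold change 0.39, 95% interval −0.01 to 0.78, adjusted p = 0.527). DESeq2 called 0 members in either comparison, with no adjusted p for Igfbp3, Igfbp6 and Igfbp7.

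The third question was whether the response to OIR differed between the labels, tested as the interaction of OIR and label over all 12 libraries. Again 0 of 9 members passed, where 0.973% of all genes did, and 0 had an unadjusted p under 0.05, where 12.5% did. The interaction of Igfbp2 was 0.10 (95% interval −0.45 to 0.65, adjusted p = 0.934) and that of Igf1r was −0.0012 (−0.32 to 0.32, adjusted p = 0.998). The intervals leave room for differences of that size, and wider ones for Igfbp3 (−2.40 to 2.53) and Igfbp6 (−1.41 to 4.15). That Igf1r passed under 1 label alone therefore does not show a difference between the labels.

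Of 71 other genes of the pathway, sorted by role into 8 lists, 59 were tested. In OIR against normoxia, 4 rose and 0 fell under the WT label, and 7 rose and 0 fell under the Casp1 KO label. Both counts of rises include Stc2, which was kept only through OIR libraries, so the filter favoured its rise. Of all genes, 1.53% rose and 2.69% fell under the first label, and 3.84% and 3.39% under the second. The median log2 fold change of the 59 was 0.13 and 0.09, and the same without Stc2 and Cyr61, which had a group at 3 reads or fewer, gave 0.13 and 0.09.

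Among the ligand locus and receptor genes, H19, the imprinted noncoding RNA next to Igf2, was at 7.61, 6.16 and 5.23 CPM in normoxia labelled WT and at 24.9, 23.5 and 22.9 CPM in OIR. It rose by 3.74-fold (log2 fold change 1.90 ± 0.27, adjusted p = 0.000461). The libraries labelled Casp1 KO held 18.95, 20.05 and 17.2 CPM in normoxia and 22.3, 19.7 and 16.03 CPM in OIR, which overlapped (log2 fold change 0.05, adjusted p = 0.936). In normoxia H19 was 2.95-fold higher in the libraries labelled Casp1 KO (log2 fold change 1.56 ± 0.29, adjusted p = 0.00116). The normoxic libraries labelled WT were thus low and the other 9 lay between 16.03 and 24.9 CPM, and the interaction of OIR and label was −1.86 ± 0.34 (adjusted p = 0.00422). The interaction of Igf2 was −0.13 (95% interval −0.60 to 0.34).

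Insr, the insulin receptor, which forms hybrids with IGF1R, was at 29.7, 32.3 and 28.1 CPM in normoxia labelled WT and at 47.4, 46.3 and 51.4 CPM in OIR, and rose by 1.60-fold (log2 fold change 0.68 ± 0.17, adjusted p = 0.028). The 34.1, 34.8 and 34.6 CPM of normoxia labelled Casp1 KO lay below the 42.4, 43.6 and 47.1 CPM of OIR, and that difference missed the threshold (log2 fold change 0.37 ± 0.17, adjusted p = 0.219). The difference between the labels did not pass either (interaction −0.32, adjusted p = 0.617). The call under the WT label was lost with 5 of the 6 libraries left out in turn, at adjusted p values up to 0.127. Over all 12 libraries the normoxic and OIR values did not overlap, as for 4.27% of all genes, and the log2 fold change was 0.53 ± 0.12 (adjusted p = 0.00428).

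**Figure D4:**
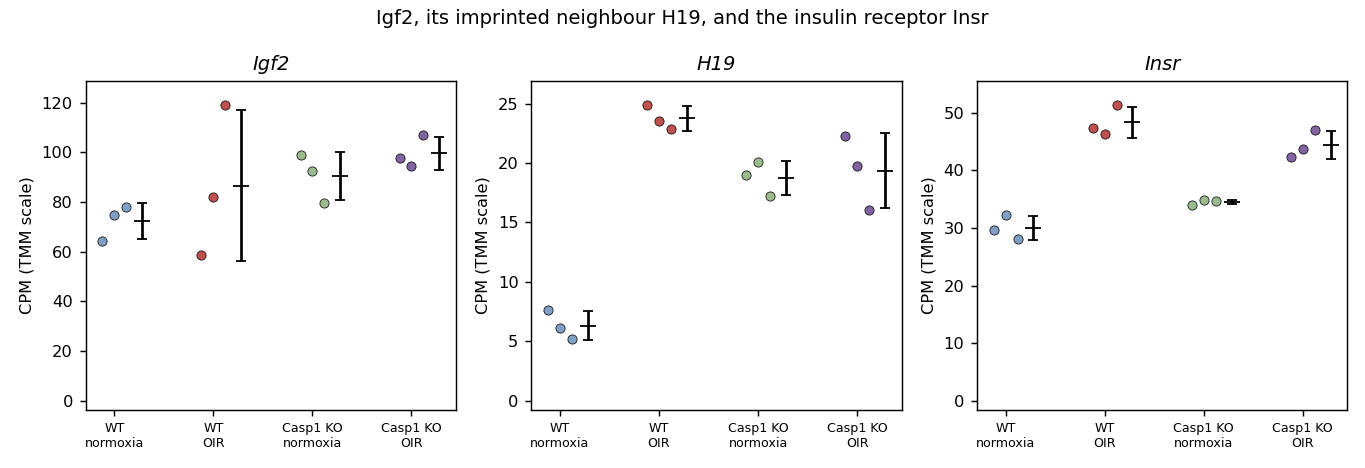
Levels of Igf2, H19 and Insr in CPM on the TMM scale (vertical axes, a separate scale for each gene) in the 4 groups, with the 3 libraries of each group as points and the mean and SD beside them. H19 is low in the 3 normoxic libraries labelled WT and between 16.03 and 24.9 CPM in the other 9, Igf2 ranges from 58.6 to 119 CPM, and Insr is higher in all 6 OIR libraries than in all 6 normoxic ones.

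Of 5 tested genes listed as proteases of the binding proteins or as inhibitors of such proteases, Stc2 rose under both labels and Stc1 and Prss23 in the libraries labelled Casp1 KO. Of all genes, 1.53% rose under the WT label and 3.84% under Casp1 KO. Cleavage of the binding proteins by any of these was not measured. For Prss23 the sources used here do not establish such cleavage, and its place in the list is no evidence of it. The difference between the labels did not pass for any of the 3 genes (interaction, adjusted p = 0.533 for Stc2, 0.711 for Stc1 and 0.208 for Prss23). Stc2, a stanniocalcin that inhibits pappalysin, held 0, 8 and 1 reads in normoxia labelled WT and 10, 37 and 7 in OIR, and 0 reads in all 3 normoxic libraries labelled Casp1 KO against 15, 13 and 18 in OIR. It was kept for testing only through OIR libraries, 5 of which passed the filter's level against 0 in normoxia, so the filter favoured a rise. Its adjusted p was 0.044 under WT and 0.0026 under Casp1 KO, and under the latter it was at least 14.3-fold higher, taking 3 reads over the normoxic group as the floor. The call under the WT label was lost with 5 of the 6 libraries left out in turn (adjusted p up to 0.341). Stc1, the related stanniocalcin, rose from 7.52 ± 2.94 to 15.1 ± 1.8 CPM in the libraries labelled Casp1 KO (log2 fold change 1.0103 ± 0.3259, adjusted p = 0.0473), a call that was lost without any one of 5 of the 6 libraries. Prss23, a serine protease, rose from 5.78 ± 1.47 to 18.4 ± 1.6 CPM there (log2 fold change 1.65 ± 0.31, adjusted p = 0.000243). Under the WT label, Stc1 (0.51, adjusted p = 0.402) and Prss23 (0.43, adjusted p = 0.554) did not pass.

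Among proteins that carry an IGFBP-like domain, Htra1, a serine protease that cleaves extracellular matrix, rose under both labels. It was at 71.3, 79.3 and 90.4 CPM in normoxia labelled WT and at 132, 117 and 125 CPM in OIR (1.55-fold, adjusted p = 0.0127), a call lost without replicate 1 or 2 of normoxia (adjusted p = 0.103 and 0.0666). The libraries labelled Casp1 KO went from 81.1, 60.7 and 87.7 CPM to 152, 136 and 129.7 CPM (1.82-fold, adjusted p = 1.58e-06). All 6 OIR libraries exceeded all 6 normoxic ones. The annotation places the whole of Htra1 within Fgfr2 on the other strand. Ctgf, a matricellular growth factor, was at 4.56, 11.2 and 11.9 CPM in normoxia and 13.8, 22.4 and 42.6 CPM in OIR labelled Casp1 KO (log2 fold change 1.56 ± 0.32, adjusted p = 0.00077), a call lost without replicate 3 of OIR (adjusted p = 0.0886). Under the WT label it ranged from 4.64 to 37.6 CPM within OIR, replicate 3 being the highest (log2 fold change 0.95 ± 0.59, adjusted p = 0.454), and the interaction was 0.58 (adjusted p = 0.825).

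Downstream of the receptor, 1 of 22 tested substrates, adaptors and kinases rose in the libraries labelled Casp1 KO, a share near the 3.84% of all genes, and 0 in those labelled WT, where 1.53% of all genes did. Irs2, the insulin receptor substrate that couples the receptor to phosphoinositide 3-kinase, was at 41.4, 43.6 and 39.0 CPM in normoxia labelled Casp1 KO and 63.5, 57.7 and 66.4 CPM in OIR (log2 fold change 0.61 ± 0.15, adjusted p = 0.00817), a call lost without replicate 3 of normoxia (adjusted p = 0.0531). Under the WT label its values overlapped, at 59.5 ± 12.9 and 55.8 ± 3.3 CPM (adjusted p = 0.841), and the difference between the labels did not pass (interaction 0.70, adjusted p = 0.144). Of 12 brakes and nuclear effectors, Socs3, a feedback inhibitor of cytokine and insulin signalling, rose in the libraries labelled Casp1 KO, from 3.24 ± 0.58 to 11.4 ± 6.4 CPM (log2 fold change 1.80 ± 0.43, adjusted p = 0.0048), with the call lost without replicate 3 of OIR (adjusted p = 0.205). In those labelled WT it was at 4.41 ± 1.69 and 8.503 ± 1.622 CPM without overlap (log2 fold change 1.0025 ± 0.441, adjusted p = 0.248), and the interaction was 0.79 (adjusted p = 0.671).

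In the fit over all 12 libraries, 8 of the 59 rose (Htra1, Stc2, Insr, Socs3, Prss23, H19, Stc1 and Ctgf) and 1 fell, where 3.37% and 4.29% of all genes did. Among those that rose, Stc2 was kept only through OIR libraries, which favoured its rise. The gene that fell was Grb14, an adaptor that inhibits the activated insulin receptor, at 12.97 CPM on average in normoxia and 7.24 CPM in OIR (log2 fold change −0.84 ± 0.24, adjusted p = 0.026), a call lost with 6 of the 12 libraries left out in turn, at adjusted p values of 0.0506 to 0.0767. The calls of Stc1 and H19 in this fit were lost with 9 and 3 of the 12 libraries left out in turn. Between the labels, 1 of the 59 passed in normoxia, H19, where 1.25% of all genes did, and 0 passed in OIR, where 0.112% did. The growth hormone axis (3 tested) and the mRNA-binding proteins of Igf2 (3 tested) had 0 calls in any comparison.

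**Figure D5:**
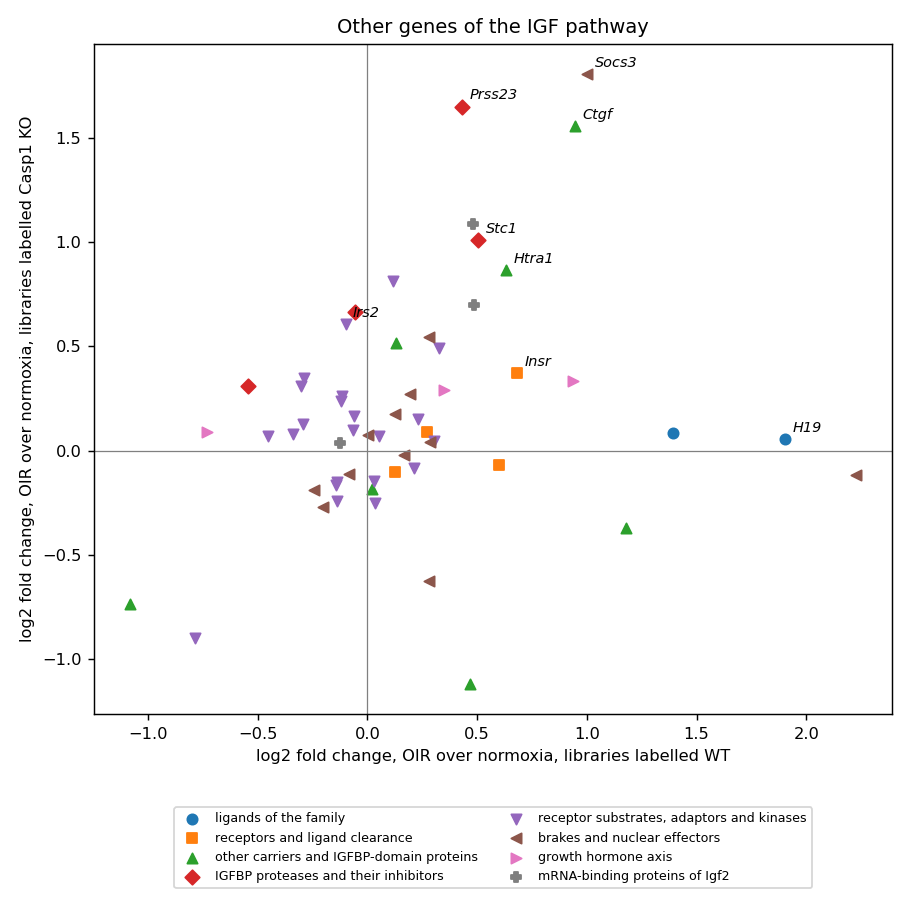
Log2 fold change of OIR over normoxia in the libraries labelled WT (horizontal axis) and Casp1 KO (vertical axis) for 57 pathway genes, with symbol shape and colour giving the role and names on genes that passed under either label. Stc2 and Cyr61 are left out because a group held 3 reads or fewer. Named genes lie in the upper part, H19 near 0 on the vertical axis, and Irs2 left of 0 on the horizontal axis.

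The genes whose levels across the 12 libraries were most like those of the 2 called members were Galk1 (Pearson r = 0.914), Zdhhc20 (0.909) and Gja1 (0.906) for Igfbp2, and Casz1 (0.961), Dyrk2 (0.947) and Dnajb14 (0.944) for Igf1r, among 11230 genes of at least 5 CPM on average. For Igfbp5 they were Bmp4 (0.964), Tagln2 (0.920) and Acta2 (0.917). For the ligands they were Aatf (0.855), Dcaf6 (0.836) and Tmem175 (0.834) with Igf1, and Peli1 (0.938), Dap (0.924) and Nxnl2 (0.903) with Igf2. Igfbp3 went with Gm30541 (0.905), Crhbp (0.898) and Cyb5r1 (0.896), Igfbp4 with Ube2m (0.849), Gas8 (0.838) and Cinp (0.830), Igfbp6 with Gng7 (0.923), Faim (0.902) and Rab4a (0.886), and Igfbp7 with Cgn (0.935), Ccdc51 (0.917) and Slc26a2 (0.889). Among pairs of members the highest value was that of Igf1r and Igfbp2 (0.800), and after subtraction of the group means it was 0.345. These are descriptions over libraries that share groups, depth and library preparation.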

How the data were processed

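RNA of mouse retina was sequenced from the 3′ end (QuantSeq FWD) in 12 libraries. Per the labels and the study's methods, the authors aligned reads to mm10 with STAR 2.7.5a and tabulated counts per gene with HTSeq 0.6.1; the deposited values are raw counts, and the gene annotation and strand setting are not given in the sources used here. Groups came from the labels of genotype and treatment.

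From the deposited counts, edgeR 4.0.16 in R 4.3.3 gave TMM factors, CPM and quasi-likelihood tests. Genes were kept by filterByExpr over the 4 groups (minimum count 10), and p-values were adjusted by Benjamini-Hochberg over all 14287 genes kept, with a threshold of 0.05. Each comparison of a pair of groups used its own 6 libraries, and the interaction used all 12. Intervals of 95% are normal bounds from the standard error of the fit, and the floor of 3 counts covers counting error only. The scripts were tested on simulated data. With 14287 genes simulated for OIR against normoxia labelled WT, the test recovered 60.9% of genes given a log2 change of 1 and 76.1% of genes given 2, and made 7 false calls. For the interaction it recovered 32.7% and 64.5%, with 6 false calls. The simulated counts had the same spread of a gene in all libraries and no library that stood apart. Both simulated sizes exceeded the log2 fold changes of the called members. The shares recovered therefore do not describe the power for those members.

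The members and the lists were chosen with earlier results of these data known. Named were every member, pathway genes passing in a comparison (at most 8 by p), and for each member the 3 genes of highest correlation of log2(CPM + 1). Alternatives were DESeq2 1.42.0, other scalings, filters, prior counts and quasi-likelihood settings, a replicate block, one fit of all libraries, and leaving out each library. Same-numbered libraries of different groups did not deviate together (correlations −0.0344 to 0.0453), so replicate numbers were not taken as pairs.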

Additional observations from a re-analysis of the deposited data

Results flagged for a closer look

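H19 differed in its response to OIR between the genotype labels by a test of the difference itself, with an interaction of −1.86 (edgeR quasi-likelihood test, adjusted p = 0.00422). The interaction ran from −1.98 to −1.74 with each library left out in turn, at adjusted p values of 0.00141 to 0.0218. The 3 normoxic libraries labelled WT were low, at 5.23 to 7.61 CPM, and the other 9 lay between 16.03 and 24.9 CPM. Single values far from the rest of a group were not tested gene by gene, since each group held 3 libraries.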

How the results depend on the processing

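Over the settings tried, the rise of Igfbp2 in the libraries labelled Casp1 KO kept its direction and its side of the threshold. With all 12 libraries in one fit, 992 genes were called in OIR labelled WT (603 as reported), 492 in OIR labelled Casp1 KO (1032), 56 between labels in normoxia (179) and 91 between labels in OIR (16). DESeq2 called 70 between labels in OIR and 273 for the interaction (139 as reported), and keeping every gene with at least 1 count gave 131 and 277. With each library left out in turn, the calls ranged from 227 to 1053, from 672 to 834, from 102 to 168, from 0 to 699, from 847 to 1039 in the fit over both labels, and from 60 to 521 for the interaction. The 699 calls between labels in OIR came without replicate 3 of OIR labelled WT. Single libraries also turned the sign of estimates that had not passed. In OIR labelled WT the range was −0.033 to 0.476 for Igf2 and −0.148 to 0.083 for Igfbp4, and labelled Casp1 KO it was −0.030 to 0.318 for Igfbp4 and −1.59 to 0.019 for Igfbp6. Between labels in normoxia it was −0.041 to 0.209 for Igf1, −3.17 to 1.31 for Igfbp3 and −0.218 to 0.072 for Igfbp4. Between labels in OIR it was −0.017 to 0.488 for Igf2, −0.073 to 0.216 for Igfbp4, −0.158 to 0.112 for Igfbp5, −0.536 to 0.531 for Igfbp6 and −0.315 to 0.032 for Igfbp7. Over both labels it was −0.032 to 0.123 for Igfbp4. For the interaction it was −0.130 to 0.120 for Igf1, −0.337 to 0.174 for Igf2, −0.108 to 0.183 for Igf1r, −0.072 to 0.276 for Igfbp2, −1.64 to 2.75 for Igfbp3, −0.0091 to 0.341 for Igfbp4, −0.242 to 0.021 for Igfbp5 and −0.038 to 0.642 for Igfbp7. The cause of these shifts was not tested. Estimates near 0 changed sign with the newer quasi-likelihood method, to 0.019 for Igfbp4 in OIR labelled WT, to 0.089 for Igfbp3 and 0.055 for Igfbp4 between labels in normoxia, and to 0.030 for Igf1 and −0.44 for Igfbp3 in the interaction. The Igf1r interaction became 0.00398 with at least 1 count and 0.017 with the replicate block. With that block, 553, 998, 129, 22, 1025 and 136 genes were called in the 6 comparisons, and Igfbp2 in OIR labelled WT missed the threshold (log2 fold change 0.78, adjusted p = 0.0591). Igfbp6 in OIR labelled WT passed with DESeq2 (adjusted p = 0.0467) and with the newer method (0.028). Over both labels, Igfbp3 passed with DESeq2, the newer method, the block and at least 1 count, Igfbp5 with DESeq2, its size factors, the newer method and a stricter filter, and Igfbp6 with the newer method (−2.11, adjusted p = 0.0135). Under the main filter Igfbp3 and Igfbp6 were kept only through the condition in which they were higher, which favoured a difference in that direction. In OIR labelled Casp1 KO, Stc1 missed the threshold with DESeq2 (adjusted p = 0.0737) and with all libraries in one fit (0.0848), as did Ctgf in the latter (0.127). DESeq2 gave no adjusted p for 7 results. The fit over both labels was chosen after seeing the data. Genes at few reads, Igfbp3 and Igfbp6 among them, are limited by depth.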
